A study of Mus musculus with 2 samples.

Results

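Mitotic cancer cells from omental tumors of mice were taken from the KPCA.FSTKO library by their own transcripts. A barcode was first kept when mitochondrial genes gave under 20% of its unique molecular identifiers (UMIs, 1 for each captured transcript) and when it held more than 200 and fewer than 8000 genes. It was called a cancer cell when Krt7, Krt8, Krt18 and Krt19, keratins of simple epithelia, together gave at least 0.1% of its UMIs and when it held 0 UMIs of Ptprc, the pan-leukocyte gene, and 0 of Pecam1, an endothelial gene. A cancer cell was called mitotic when 8 genes of the dividing cell, Top2a, Mki67, Cenpf, Ube2c, Prc1, Tpx2, Nusap1 and Cenpe, together gave at least 0.1% of its UMIs. This left 759 mitotic cells among 3487 cancer cells, out of 6777 kept and 7582 deposited barcodes of that library and 11826 barcodes in both libraries. The other 2728 cancer cells of the same library are the comparison. The members were chosen by the UMIs of these genes in the cells that are then compared, so all differences between the groups are descriptions and no test was made.

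The study asked what human FSTL3, a secreted antagonist of activin, does to the tumor environment in a mouse model of high-grade serous ovarian carcinoma. KPCA cells, which the sample records call fallopian tube epithelial cells, carry, among other alterations, mutant Trp53 and overexpress Ccne1 and Akt2. KPCA.FSTKO cells come from the clone KPCA.C by deletion of Fst, the gene of the activin antagonist follistatin, and KPCA.FSTKO_hFSTL3 cells are 1 stable clone of KPCA.FSTKO that received a human FSTL3 plasmid and was chosen for FSTL3 secretion. Cells of either line were injected into the peritoneum of female C57BL/6J mice of 12 to 16 weeks, and omental tumors of untreated mice were taken on day 10. Each library pools 4 tumors of 1 line, so there is 1 library per genotype, no replicate, and no way to tell line, clone, pool and library apart. Both injected lines share the alterations of the KPCA line and the deletion of Fst. No driver allele was read in single cells, and host cells with keratin RNA can pass the rule. The libraries hold 168214773 and 80391504 UMIs, with medians of 16368 and 15122.5 per barcode. They share 12 barcodes, of which 1 is a mitotic cancer cell of KPCA.FSTKO.

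A dividing cell copies its DNA in S phase, then builds up in G2 the proteins that condense and separate the chromosomes in mitosis. The RNAs of the earlier step, for nucleotide synthesis, replication forks and histones, are driven largely by E2F factors, while those of the later step, for the spindle, the kinetochore and cytokinesis, are driven by B-Myb and FoxM1, which act with the MuvB core at CHR elements, and by NF-Y, which binds CCAAT. In resting cells the MuvB core is instead part of the repressing DREAM complex. In ovarian carcinoma with high Ccne1, which encodes cyclin E, entry into S phase is known to be forced.

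The promoters of 8 genes are shown, because genes of the mitotic and of the replication lists were higher together in these cells and hold some short motifs at their starts in different shares. Each window runs from 250 bases before to 30 bases after the transcription start given by RefSeq on GRCm38.p6, is read along the gene, and has in capitals every match on either strand to 4 patterns. The first is TTTGAA and another is TTCGAA, both with the letters of a CHR element. The third is CCAAT. The last, called E2F-like here, is any of TTTGGCGC or TTTGCCGC or TTTCGCGC or TTTCCCGC. Adjacent or overlapping matches appear as 1 run of capitals. The first 3 are the rule genes with the largest ratio between mitotic and other cancer cells, Nusap1 at chr2:119618048-119618327 (plus strand), Cenpf at chr1:189688057-189688336 (minus strand) and Ube2c at chr2:164769679-164769958 (plus strand).
Nusap1: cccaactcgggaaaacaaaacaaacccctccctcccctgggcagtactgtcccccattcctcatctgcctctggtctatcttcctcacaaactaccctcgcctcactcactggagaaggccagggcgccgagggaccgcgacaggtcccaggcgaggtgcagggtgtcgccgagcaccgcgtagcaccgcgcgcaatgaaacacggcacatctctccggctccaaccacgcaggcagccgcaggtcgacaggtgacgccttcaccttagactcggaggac
Cenpf: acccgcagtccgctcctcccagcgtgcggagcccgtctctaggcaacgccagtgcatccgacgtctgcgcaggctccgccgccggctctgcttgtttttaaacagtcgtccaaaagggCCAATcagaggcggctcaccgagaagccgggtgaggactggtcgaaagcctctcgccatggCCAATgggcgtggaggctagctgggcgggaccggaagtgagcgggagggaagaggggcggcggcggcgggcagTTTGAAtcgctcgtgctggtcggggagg
Ube2c: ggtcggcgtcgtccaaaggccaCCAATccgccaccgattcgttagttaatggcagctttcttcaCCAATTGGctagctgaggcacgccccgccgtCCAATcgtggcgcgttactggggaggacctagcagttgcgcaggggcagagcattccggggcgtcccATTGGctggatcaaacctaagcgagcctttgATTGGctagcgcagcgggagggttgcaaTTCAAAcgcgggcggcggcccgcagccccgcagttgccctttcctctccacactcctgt

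The next 3 have the largest ratio among the listed genes of the spindle, kinetochore and cytokinesis that were left in the choice. All of them act on the spindle: Kif14 at chr1:136467598-136467877 (plus strand), Kif11 at chr19:37376132-37376411 (plus strand) and Aspm at chr1:139454523-139454802 (plus strand).
Kif14: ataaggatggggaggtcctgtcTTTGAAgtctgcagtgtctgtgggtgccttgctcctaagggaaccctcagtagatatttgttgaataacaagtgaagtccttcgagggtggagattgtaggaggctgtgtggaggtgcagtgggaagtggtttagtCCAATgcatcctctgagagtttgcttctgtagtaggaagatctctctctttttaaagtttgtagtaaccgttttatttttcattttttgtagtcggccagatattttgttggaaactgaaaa
Kif11: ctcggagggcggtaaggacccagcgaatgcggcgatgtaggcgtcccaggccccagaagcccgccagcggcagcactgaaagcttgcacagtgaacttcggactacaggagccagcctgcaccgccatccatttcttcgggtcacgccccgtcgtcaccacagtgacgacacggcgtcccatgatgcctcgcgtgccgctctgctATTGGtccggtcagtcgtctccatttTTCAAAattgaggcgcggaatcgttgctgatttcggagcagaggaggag
Aspm: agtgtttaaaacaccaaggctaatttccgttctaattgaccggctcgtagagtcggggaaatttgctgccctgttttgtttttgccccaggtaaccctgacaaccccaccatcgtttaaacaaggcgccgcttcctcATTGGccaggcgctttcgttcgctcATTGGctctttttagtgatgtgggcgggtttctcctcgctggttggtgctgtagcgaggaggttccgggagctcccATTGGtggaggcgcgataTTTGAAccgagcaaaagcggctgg

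The last pair has the largest ratio among the DNA replication genes left in the choice that hold an E2F-like match. It is Gins3 at chr8:95633309-95633588 (plus strand) and Mcm5 at chr8:75109259-75109538 (plus strand).
Gins3: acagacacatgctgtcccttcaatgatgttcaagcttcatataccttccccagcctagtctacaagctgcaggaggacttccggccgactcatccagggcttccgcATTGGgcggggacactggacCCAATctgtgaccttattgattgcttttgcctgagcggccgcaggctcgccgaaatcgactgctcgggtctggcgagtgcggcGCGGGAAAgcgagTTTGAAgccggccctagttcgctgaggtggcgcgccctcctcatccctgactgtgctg
Mcm5: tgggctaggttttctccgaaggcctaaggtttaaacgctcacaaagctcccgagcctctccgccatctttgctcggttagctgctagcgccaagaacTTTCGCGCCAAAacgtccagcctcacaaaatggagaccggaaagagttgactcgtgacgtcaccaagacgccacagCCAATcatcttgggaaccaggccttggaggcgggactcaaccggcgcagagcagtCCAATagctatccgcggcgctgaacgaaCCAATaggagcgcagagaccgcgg

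A TTTGAA lies at 3 bases after the start of Cenpf, 7 after that of Aspm, 19 before that of Kif11 and 29 before that of Ube2c, counted to the first base of the match. In Kif14 it lies 228 bases before the start, and the Nusap1 window holds none of these motifs. The Kif14 window lies wholly downstream of the start given by the gene's own coordinates, chr1:136466343, so it may not hold that promoter. Gins3 holds both an E2F-like match, 41 bases before the start, and a TTTGAA 28 bases before it, whereas Mcm5 holds overlapping E2F-like matches and CCAAT but no TTTGAA. Over whole lists, TTTGAA was in a promoter of 17 of the 20 spindle motor and microtubule genes with a RefSeq window (85.0%), 5 of the 7 rule genes, 6 of the 8 cytokinesis genes and 8 of the 25 kinetochore genes (32.0%), against 19.5% of all 27025 genes with a window. It was in 3 of the 13 mitotic cyclin and kinase genes (23.1%) and 4 of the 17 genes of the anaphase-promoting complex (23.5%), near the share of all genes, and in 4 of the 30 DNA replication genes (13.3%). The E2F-like letters were in 9 of the 30 DNA replication genes (30.0%) and 6 of the 13 checkpoint and repair genes (46.2%), against 2.45% of all genes, and in 0 of the 7 rule genes. They were also in 3 of 14 condensin and cohesin genes (21.4%), 4 of 25 kinetochore genes and 2 of 20 spindle motor genes. The spindle checkpoint and cytokinesis genes held none. CCAAT, which 39.7% of all genes hold, was in 12 of the 13 chromatin protein genes (92.3%) and 18 of the 30 DNA replication genes (60%). It was in 6 of the 7 rule genes, 11 of 13 cyclin and kinase genes (84.6%) and 14 of 20 spindle motor genes (70%). In the anaphase-promoting complex it was in 7 of 17 (41.2%), near the share of all genes. TTCGAA, in 1.70% of all genes, was in 2 of the 8 spindle checkpoint genes and 2 of the 13 cyclin and kinase genes. Either TTTGAA or TTCGAA was in 5 of those 13, 38.5% against 20.9% of all genes. A match is a run of letters and was not tested as a binding site.

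Mitotic cells made up 21.8% of the cancer cells of KPCA.FSTKO (95% interval 20.4 to 23.2%, Clopper-Pearson, counting error only). The word mitotic stands here for passing the rule on RNA, and the stage of single cells was not measured. Of the 492 members of at least 5000 UMIs, 204 (41.5%) held at least 0.2% of UMIs from 37 DNA replication genes. The share is thus not read as that of cells in mitosis. The share of a cell's UMIs from the 8 genes had no gap at the threshold. The members just inside had 23 of 22970 UMIs (0.1001%), 3 of 2993 (0.1002%) and 53 of 52809 (0.1004%), and the cells just outside had 39 of 39068 (0.0998%), 18 of 18036 (0.0998%) and 3 of 3013 (0.0996%). Between 0.08 and 0.12% lay 182 cancer cells (5.22%), and 858 cancer cells held 0 UMIs of the 8 genes. The median share was 0.226% in members and 0.00552% in other cancer cells, and the highest member reached 2.20%. The rule is loose for shallow cells, where 1 UMI is enough below 1000 UMIs. Of the members, 115 (15.2%) had under 1000 UMIs, against 190 of the other cancer cells (6.96%), and 102 (13.4%) were called on 1 or 2 UMIs, while 524 (69.0%) held at least 10. Among cancer cells of at least 5000 UMIs, 492 of 2803 were mitotic, 17.6% (16.2 to 19.0%). When each cell was thinned to 5000 UMIs, which left out 684 shallower cells, 522 of 2803 passed, 18.6% (17.2 to 20.1%).

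As a background, the same 0.1% threshold was passed by 52 of 1122 barcodes that held Ptprc and lay under the keratin threshold, 4.63% (3.48 to 6.03%) at a median of 11923.5 UMIs, and by 49 of 907 such barcodes after thinning, 5.40%. This share holds dividing leukocytes as well as free RNA. The cancer cell share of KPCA.FSTKO lay above it with separate intervals, thinned or not. Over all barcodes under the keratin threshold, 269 of 3057 passed, 8.80% (7.82 to 9.86%), still below the unthinned cancer cell share. Of the keratin-bearing barcodes that the rule left out for a Ptprc or Pecam1 UMI, 53 of 233 (22.7%, 17.5 to 28.7%) were mitotic, a share whose interval overlaps that of the members. Scrublet, which scores barcodes for doublets, called 90 of the 6777 kept barcodes (1.33%), among them 5 members and 15 other cancer cells. In the other library it called 1 of 4041, too few to remove doublets.

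**Figure D1:**
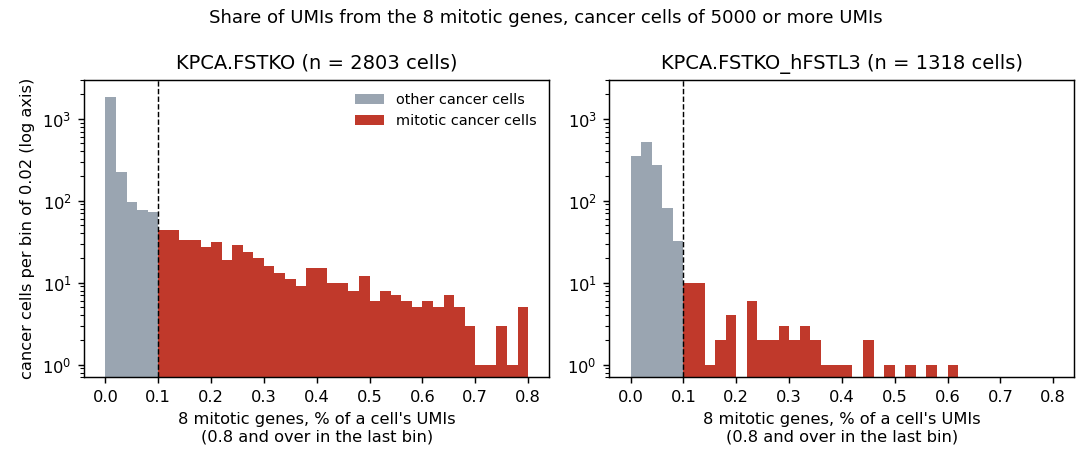
Histograms of the share of UMIs from the 8 mitotic genes in cancer cells of at least 5000 UMIs, in percent on the x axis and as cells per bin on a log y axis, with KPCA.FSTKO on the left and KPCA.FSTKO_hFSTL3 on the right and members in red. Cells at 0.8% and over are in the last bin. The shares run without a gap through the threshold of 0.1% in both libraries, with 492 of 2803 and 56 of 1318 cells above it.

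The mitotic and other cancer cells held similar shares of mitochondrial RNA and differed in depth. Members had a median of 21559 UMIs (lowest 500, highest 104187) and 4962 genes, and other cancer cells 26074 UMIs (lowest 500, highest 113175) and 5205 genes. The ratio of the median UMIs was 0.827 and its direction depended on shallow barcodes, since among cells of at least 5000 UMIs the medians were 37843 and 29198, a ratio of 1.30. The median mitochondrial share was 3.15% in members and 3.44% in other cancer cells.

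The keratins that the rule used for both groups are given as a description. Together the 4 keratins were at 3233 CPM (counts per 1000000, the UMIs of a gene as a part of 1000000 UMIs of the group) in members and 3317 CPM in other cancer cells, a ratio of 0.975 (0.966 to 0.983). Krt18 was at 1031 and 1024 CPM, Krt19 at 1171 and 1183 CPM, Krt8 at 849 and 922 CPM and Krt7 at 182 and 189 CPM. Further markers were read beside the keratins. The mesenchymal filament gene Vim was at 3464 CPM in members, the epithelial adhesion genes Cdh1 and Epcam at 30.2 and 4.34 CPM, and the Müllerian factor Pax8 at 7.37 CPM. Wfdc2 and Msln, which encode the ovarian tumor antigens HE4 and mesothelin, were at 657 and 629 CPM. The study also uses Msln and Krt19 as markers of mesothelial cells, so these values do not separate cancer cells from mesothelial cells. The members thus carried keratin, Wfdc2 and Msln RNA with little Epcam and Pax8 RNA, and the other cancer cells shared this pattern, at 3520 CPM of Vim, 41.05 of Cdh1, 5.06 of Epcam, 9.66 of Pax8, 486 of Wfdc2 and 578 of Msln. Of the Epcam UMIs in other cancer cells, 92.2% lay in 1% of those cells (28 cells), so that level is carried by a few cells.

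The 8 genes of the rule differed in how much each gave. Ube2c, the ubiquitin-conjugating enzyme of the anaphase-promoting complex, was at 787 CPM in members (774 to 800, exact Poisson interval) and 29.5 CPM in other cancer cells, and gave 25.1% of the members' UMIs of the 8 genes. Top2a, the topoisomerase that untangles sister chromatids, was at 666 CPM (654 to 678) and 40.4 CPM, and gave 21.3%. Both lead by UMIs, so the rule weighs them most. The kinetochore protein Cenpf was at 422 CPM (413 to 431) and 13.1 CPM, and the kinetochore motor Cenpe at 226 and 11.9 CPM. Prc1, which bundles the microtubules of the spindle midzone, was at 347 and 17.8 CPM, and the proliferation antigen Mki67, which coats mitotic chromosomes, at 276 and 15.5 CPM. The spindle assembly factors Tpx2 and Nusap1 were at 259 and 19.9 CPM and at 151 and 3.68 CPM. Nusap1 gave only 4.81% of the UMIs of the 8 genes yet had the largest log2 ratio, 5.35, and Tpx2 the smallest, 3.71.

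Most deep members carried the whole set of 8 genes. Among the 492 members of at least 5000 UMIs, 346 (70.3%) held a UMI of all 8 genes and 461 (93.7%) of at least 6, whereas 88 of all 759 members were called on 1 gene. In cells thinned to 5000 UMIs, Top2a was seen in 87.0% of the members and 14.97% of the other cancer cells. The corresponding shares for Ube2c were 79.3% and 11.5%, and those for Nusap1 44.5% and 1.64%. Without thinning they were 81.8% and 38.5% for Top2a over all cells. The members' share of the 8 genes followed neither their keratin share (Spearman rho 0.01 over 492 cells of 1 library) nor, more than weakly, their depth (rho 0.18).

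Over the whole table, 12568 genes had at least 100 UMIs in the 2 groups together, leaving out the genes of the rule. By a size rule that is no test, 908 (7.22%) were higher in mitotic cells, with a CPM ratio of at least 1.5, and 774 (6.16%) were lower, with a ratio of at most 1 over 1.5. The conditional binomial interval of the ratio excluded 1 for 903 and 721 of them, and the median log2 ratio over all genes was -0.00. A ratio of at least 4 was reached by 203 genes and of at least 16 by 33, while 37 genes were at or under 1 over 4. The higher genes were well covered, with a median of 1014.5 UMIs. The lower genes had a median of 354.5 UMIs, and for 141 of them (18.2%) over 50% of the UMIs in other cancer cells came from 1% of those cells (28 cells), against 3.22% of all genes and 7.71% of the higher genes.

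**Figure D2:**
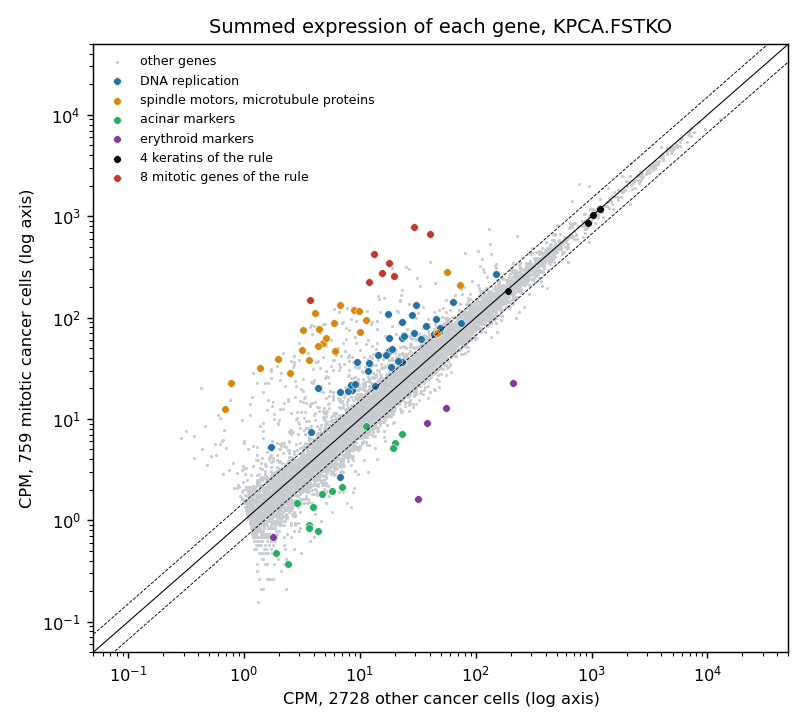
Each point is a gene, with its CPM in the 2728 other cancer cells on the x axis and in the 759 mitotic cancer cells on the y axis, both log axes, and with the rule genes, the keratins and 4 gene lists in colour. The solid line is equality and the dashed lines a ratio of 1.5. The 8 rule genes and most spindle genes lie far above the upper dashed line, the keratins lie on the diagonal, and the acinar and erythroid genes lie below it.

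The cyclins and kinases that start mitosis were higher in members throughout, 17 of 17 listed genes, with a median log2 ratio of 3.03. Aurka, the kinase that matures centrosomes, was at 84.3 CPM in members and 3.79 CPM in other cancer cells, a log2 ratio of 4.48. Plk1, the kinase active from mitotic entry to cytokinesis, was at 83.3 and 3.99 CPM (log2 4.38), and Ccnb1, the cyclin B that activates Cdk1, at 120 and 6.02 CPM (4.32). Cdk1 itself was at 188 and 23.0 CPM (3.03). Its small cofactors Cks1b and Cks2 were at 378 and 113 CPM and at 220 and 44.7 CPM, so they were already present outside the members. The smallest ratio of the list belonged to Wee1, the kinase that holds Cdk1 inactive, at 60.5 and 30.5 CPM (0.99).

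Genes of the kinetochore and centromere, the sites where microtubules grip the chromosomes, were higher in 29 of 29 cases, with a median log2 ratio of 2.39. The Ndc80 complex gene Spc25 was at 68.4 and 3.87 CPM (log2 4.14) and the scaffold gene Knl1 at 114 and 6.64 CPM (4.11). Cenpa, the histone that marks centromeres, was at 352 and 40.2 CPM (3.13), and Cenpc1, a constitutive centromere protein, had the smallest log2 ratio, 0.88. All 9 spindle checkpoint genes were higher (median 2.28), from the kinase gene Ttk at 26.5 and 2.55 CPM (3.38) to Mad1l1 (0.68). So were all 4 genes of the chromosomal passenger complex, whose kinase Aurkb was at 79.8 and 3.69 CPM (4.43) and whose subunit Birc5, survivin, was at 303 and 26.7 CPM.

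Spindle motors and microtubule proteins were higher in 23 of 23 cases, with a median of 3.62, the highest of the lists apart from the rule genes. Kif14, a kinesin of the midbody, was at 22.8 and 0.777 CPM (log2 4.88), Kif11, the motor that drives the poles apart, at 110.9 and 4.09 CPM (4.76), and Aspm, a protein of the spindle poles, at 75.9 and 3.22 CPM (4.56). Their RefSeq windows are among those printed above. The most abundant gene of the list by UMIs was Stmn1, the tubulin-binding stathmin, at 284 and 55.9 CPM (2.34), and the smallest ratio was that of Numa1 (0.60), which interphase nuclei also hold. The tubulins themselves were higher in 9 of 11 cases but by less, with a median of 1.08. Tubb4b was at 530 and 131 CPM (2.01) and Tubb5 at 1992 and 943 CPM (1.08), and Tubb2b, whose sequence is close to that of Tubb2a, had a log2 ratio of 0.20.

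Chromosome condensation and the exit from mitosis were represented less evenly. Of 17 condensin and cohesin genes, 13 were higher (median log2 ratio 1.98), led by Espl1, the separase that cuts cohesin, at 22.7 and 1.30 CPM (4.13), while its inhibitor Pttg1, securin, was at 35.6 and 32.9 CPM (0.12) and the cohesin subunit Stag2 at 102.6 and 100.02 CPM (0.04). The condensin subunit Smc4 was at 429 and 80.3 CPM (2.42). Of 18 genes of the anaphase-promoting complex and its cofactors, 7 were higher, with a median of 0.33. The regulators Fbxo5 (44.9 and 3.58 CPM, log2 3.65) and Cdc20 (97.6 and 8.37 CPM, 3.54) were far higher in members than in other cancer cells, and the enzyme Ube2s was at 320 and 110 CPM (1.54), whereas the subunit Cdc26 was at 62.7 and 64.6 CPM (-0.04). The cytokinesis list had 9 of 10 genes higher (median 3.32), from Cep55, which recruits the abscission machinery, at 86.9 and 4.84 CPM (4.17), to Rhoa, the GTPase used in all phases, at 328 and 321 CPM (0.03). This list shares Ckap2, Kif23 and Kif20a with the spindle motor list.

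**Figure D3:**
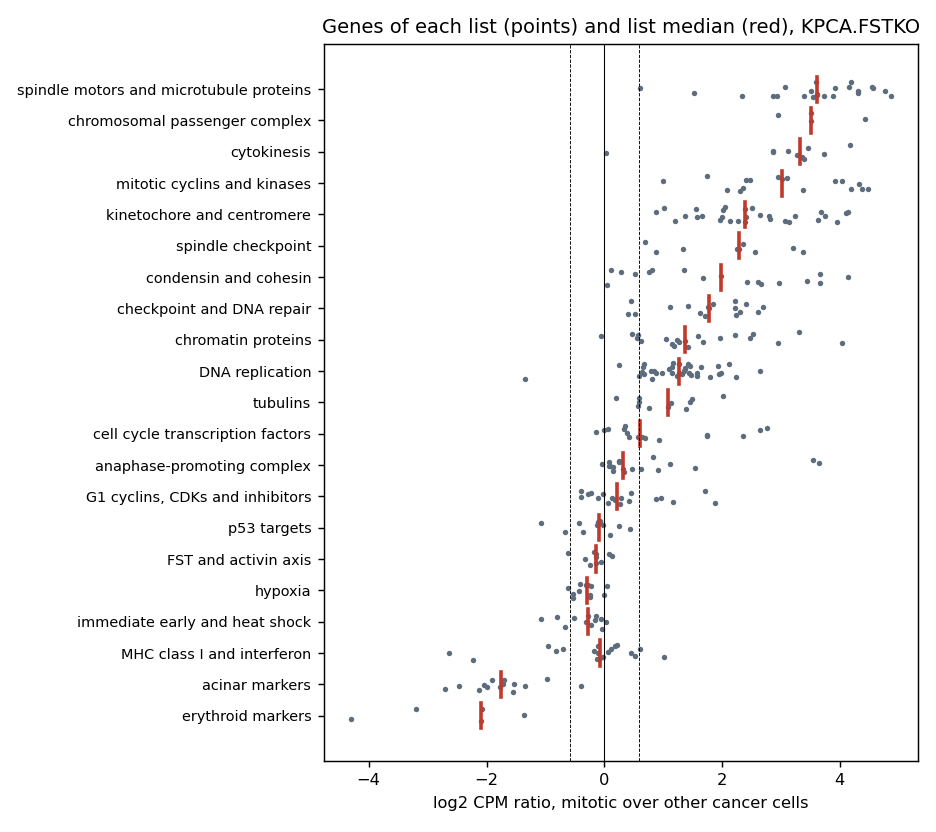
The log2 CPM ratio of mitotic over other cancer cells for every compared gene of a list (points, x axis) and the median of the list (red), 1 row per list, with dashed lines at a ratio of 1.5 in either direction. Spindle motors have the highest median, 3.62, DNA replication has 1.27, the G1 list 0.22, and the acinar and erythroid lists lie below 0 at -1.75 and -2.10.

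RNAs of DNA replication, an earlier step than mitosis, were higher in the members too. Of 37 replication genes 35 were higher and 1 lower, with a median log2 ratio of 1.27. Tk1, thymidine kinase, was at 109 and 17.5 CPM (log2 2.64) and Rrm2, the ribonucleotide reductase subunit, at 132 and 30.4 CPM (2.12). Pcna, the sliding clamp of the polymerases, was at 143 and 64.0 CPM (1.16), and Dut, which removes dUTP, at 272 and 149 CPM (0.87). Mcm5 and Gins3, parts of the replicative helicase whose promoters are printed above, were at 35.5 and 11.97 CPM (1.57) and at 5.33 and 1.70 CPM (1.65). Rfc1, the large subunit of the clamp loader, was at 88.5 and 74.1 CPM (0.26). The exception was Ung, the uracil glycosylase, at 2.67 CPM in members and 6.79 CPM in other cancer cells (-1.35). Its direction turned when members were taken at 0.05%, to 0.13.

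Histone RNAs, most of which are made only while DNA is copied, followed. Of 67 histone cluster genes 40 had enough UMIs, and 33 of these were higher and 0 lower, with a median log2 ratio of 2.91. The linker histone Hist1h1b was at 311 and 18.9 CPM (4.04). Hist1h2bc, at 113 and 137 CPM, had the lowest log2 ratio of the family, -0.28. Histone genes are near-identical copies that can share reads, and most of their RNAs lack the poly-A tail that the kit primes on, so single values are uncertain. The chromatin protein list shares genes with the histone cluster, Hist1h1b and Hist1h2ae among them. Of its 21 genes 17 were higher (median 1.37). The variant H2afz was at 2064 and 775 CPM (1.41) and Hmgb2 at 744 and 129 CPM (2.52). H3f3a, the replication-independent histone, was at 795 and 825 CPM (-0.05). For comparison, 0 of 78 ribosomal protein genes passed the size in either direction, with a median of -0.11.

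Of the cell cycle transcription factors 8 of 16 were higher. Foxm1, the activator of mitotic genes, was at 42.4 and 6.21 CPM (log2 2.77), E2f7, a repressing E2F, at 15.1 and 2.41 CPM (2.64), and Mybl2, the gene of B-Myb, at 25.4 and 4.96 CPM (2.36). The CCAAT-binding subunit Nfya was at 14.0 and 15.4 CPM (-0.14). Checkpoint and repair genes were higher in 14 of 17 cases (median 1.79), led by the crosslink repair gene Fancd2 at 14.3 and 2.22 CPM (2.69), with H2afx at 137 and 29.2 CPM (2.22) and the damage kinase gene Atm at 22.9 and 17.4 CPM (0.39).

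Genes of the G1 phase were mostly level, with 5 of 18 higher and 0 lower, against 7.22 and 6.16% of all genes. The pocket protein gene Rbl1 was at 34.4 and 9.31 CPM (log2 1.88), and Cdkn2d, an inhibitor of Cdk4 and Cdk6, at 99.4 and 30.3 CPM (1.71). Ccne1, which the line overexpresses, was at 11.6 and 5.12 CPM (1.17) and Ccne2 at 11.6 and 5.94 CPM (0.96), a log2 ratio that turned to -0.36 with members taken at 0.2%. Ccnd1, cyclin D1, was at 861 and 708 CPM (0.28). The inhibitors Cdkn2a and Cdkn1a were at 601 and 700 CPM (-0.22) and at 97.5 and 105 CPM (-0.11), so that cells with mitotic RNA held about as much RNA of these inhibitors as the rest. Other altered genes of the model were level as well, with Akt2 at 32.1 and 31.6 CPM (0.02) and Trp53 at 46.4 and 50.7 CPM (-0.13). Of 12 p53 targets compared, 2 were lower and 0 higher, against 6.16 and 7.22% of all genes, too few to set apart from those shares. The lower genes were the antiproliferative gene Btg2 at 64.5 and 136 CPM (-1.08) and Trp53inp1 at 3.87 and 6.13 CPM (-0.66).

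In the activin pathway that the study is about, 1 of 10 compared genes passed the size. Fstl3, the mouse gene, was at 8.78 CPM in members and 13.4 CPM in other cancer cells (log2 -0.61). Fst, deleted in this line, was still counted at 6.27 and 5.76 CPM (0.12), and since the deleted part is not given in the sources used here, these 3-prime counts do not check the deletion. Inhba, the activin A subunit, was at 53.3 and 62.9 CPM (-0.24), and the receptor Acvr2a at 23.3 and 25.6 CPM (-0.14). Among the 7 genes of epithelial-mesenchymal transition 1 was higher and 1 lower, near what the shares of all genes (7.22 and 6.16%) would give. Snai2 was at 17.0 and 10.4 CPM (0.72) and Snai1 at 2.25 and 4.99 CPM (-1.15, from 43 UMIs in members). Vim (-0.02) and Zeb1 (-0.21) were level. Of 9 lineage and tumor markers compared, 1 was higher and 2 were lower. Areg, a ligand of the EGF receptor, was higher at 163 and 108 CPM (0.60). Upk1b, a uroplakin, was lower at 0.366 and 1.57 CPM (-2.10, from 7 and 115 UMIs, with those in other cancer cells all in 1% of them), and Lbp, the lipopolysaccharide-binding protein, at 72.2 and 153 CPM (-1.09).

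Genes of the immediate early response were lower or level. Of 13 genes with heat shock genes included, 3 were lower and 0 higher (median log2 ratio -0.28). Dusp1, a phosphatase that turns off MAP kinases, was at 112 and 235 CPM (-1.07), Fos at 230 and 364 CPM (-0.66) and Atf3 at 32.5 and 57.0 CPM (-0.81), while Egr1 was at 459 and 473 CPM (-0.04). In the hypoxia list 1 of 12 was lower, the carbonic anhydrase gene Car9 at 14.6 and 22.3 CPM (-0.61), with Slc2a1, the glucose transporter, at 127 and 183 CPM (-0.53). A count of 1 is near what the 6.16% of all genes called lower would give, here and in the activin pathway. Of 19 genes of antigen presentation and interferon response, 2 were higher and 5 lower. Gbp2, an interferon-induced GTPase, was at 29.5 and 14.6 CPM (1.02) and the peptide transporter Tap1 at 16.1 and 10.6 CPM (0.60), but the antiviral gene Ifit1 was at 1.36 and 8.41 CPM (-2.63), and H2-D1 and B2m of the MHC class I complex were level at 388 and 394 CPM and at 461 and 499 CPM. Of the Ifit1 UMIs in other cancer cells, 89.3% lay in 1% of those cells. Among the chemokines, Cxcl2, which attracts neutrophils, was at 157 and 85.4 CPM (0.88), a log2 ratio that turned to -0.27 when single-cell CPM values were averaged.

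Markers of other cell types moved with the comparison, and their part in the lower genes was not tested. The 16 pancreatic acinar markers summed to 38.7 CPM in members and 114 CPM in other cancer cells, with 13 of the 14 compared genes lower. The 5 erythroid markers summed to 46.9 and 335 CPM, with 5 of 5 lower, and the hemoglobin gene Hbb-bs was at 22.8 and 209 CPM (-3.20). The 10 fibroblast markers summed to 523 and 843 CPM, the 8 endothelial markers to 40.4 and 54.8 CPM, and the 8 neutrophil and T cell markers to 4.71 and 14.0 CPM, with Cd3d, Cd3e and Nkg7 at 0 UMIs in members. The 12 macrophage markers ran the other way, at 122 and 97.6 CPM, with 3 of 10 higher, against 7.22% of all genes. The higher genes were Mrc1, the mannose receptor, at 22.3 and 9.88 CPM (1.17), Csf1r (0.90) and C1qb (0.70). The value of C1qb turned to -0.16 when keratin-bearing barcodes with a Ptprc or Pecam1 UMI were kept. Ptprc and Pecam1 were at 0 in all cells by the rule.

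Outside the 32 lists of genes chosen by name, the 10 genes with the largest ratio were Pif1, Sapcd2, Prr11, Mxd3, Depdc1a, Hist1h1a, Cdca2, Troap, Pimreg and Hist1h3f. Of these, Hist1h1a and Hist1h3f are among the histone cluster genes counted above. Pif1, a DNA helicase, was at 20.3 and 0.422 CPM (log2 5.59), above every gene of the rule. It had only 31 UMIs in other cancer cells, too few to say how they spread over those cells. Depdc1a, a mitotic protein, was at 56.2 and 2.97 CPM (4.24), and Pimreg, a regulator of the metaphase to anaphase step, at 86.4 and 5.02 CPM (4.11). At the other end stood Mmp10, Rgs5, Ccl5, 2210010C04Rik, Rnase1, 1200007C13Rik, Mgat4c, Tcp11l2, Epm2a and Stmn2. Mmp10, stromelysin 2, was at 0.471 and 3.11 CPM (-2.72), and 85.5% of its UMIs in other cancer cells lay in 1% of them. Tcp11l2, at 2.98 and 11.7 CPM (-1.97), was spread over more cells, with 11.3% in the top 1%. With keratins at 0.5% of UMIs the log2 ratio of Ccl5 turned to 1.60 and those of 2210010C04Rik and Rnase1 to 0.43, and with averaged single-cell CPM that of Mgat4c turned to 0.06.

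Along the share of the 8 genes the replication list and a late list separated. Cancer cells of at least 5000 UMIs were placed in 8 bins, 4 below and 4 above the threshold of 0.1%. The late list holds 60 genes of the cyclin and kinase, spindle checkpoint, spindle motor, passenger complex and cytokinesis lists, without rule genes. It leaves out the kinetochore, condensin and cohesin, and anaphase-promoting complex lists. The late list is tied to the bins by co-expression. It went from 792 CPM in the 535 cells with 0 UMIs of the 8 genes to 8283 CPM in the 124 cells at 0.4% and over. The DNA replication list instead was at 607 CPM in the first bin, 2364 CPM in the 196 cells just below the threshold, 2760 and 2817 CPM in the first member bins of 105 and 143 cells, and then 2034 and 1483 CPM in the last bins of 120 and 124 cells. Pcna was at 43.7 CPM in the first bin, peaked at 221 CPM in the first member bin, 1 bin before the list, and was at 65.7 CPM in the last. Thus the cells with most mitotic RNA held less replication RNA than those near the threshold, on either side of it.

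Other genes took their own course over these bins. Histone cluster RNA was highest in the second member bin, at 1869 CPM, and at 1438 CPM in the last. E2f1 was at 17.6 CPM in the first bin, 43.2 CPM in the bin below the threshold and 16.4 CPM in the last, which a comparison of members with other cells (29.7 and 23.7 CPM) does not show. Cdkn2d was higher in each next bin, from 27.9 to 143 CPM, and Btg2 and Dusp1 were lowest in the last bin, at 48.0 and 87.2 CPM against 148 and 272 CPM in the first. Keratin RNA stayed between 2985 and 3454 CPM in all 8 bins. Tubb5 was at 954 CPM in the first bin, 1197 CPM just below the threshold and 2246 CPM in the last.

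**Figure D4:**
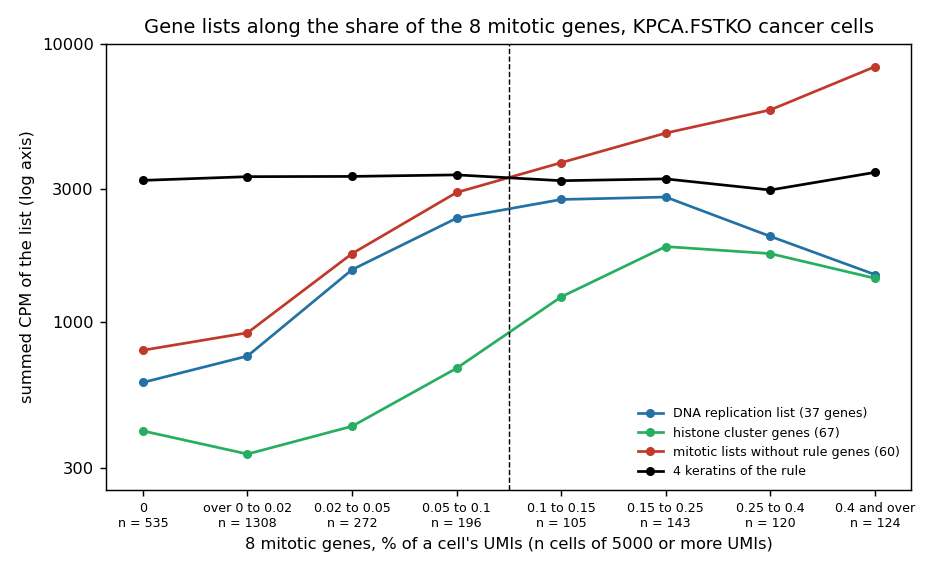
Summed CPM of each gene list (log y axis) in 8 bins of the share of UMIs from the 8 mitotic genes (x axis, with the number of cells), for cancer cells of at least 5000 UMIs of KPCA.FSTKO, with the threshold as a dashed line. The late list is highest in the last bin at 8283 CPM, DNA replication peaks at 2817 CPM in the second member bin, and keratins stay level.

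Among the members alone, the replication share showed how they differ from each other. The 492 members of at least 5000 UMIs were ranked by the share of the replication list and cut into 3 bins of 164, with medians of 0.0922, 0.169 and 0.364% and median depths of 34391, 38154.5 and 39810 UMIs. Replication RNA was at least 0.2% of UMIs in 204 of the 492 members (41.5%) and in 183 of the 2311 other cancer cells of that depth (7.92%). Over the members, the replication share went with the histone share (Spearman rho 0.50) and weakly against the share of the late list (rho -0.17), while histone and late shares were unrelated (rho 0.04). These are 492 cells of 1 library whose shares have a common denominator, and the values are descriptions.

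**Figure D5:**
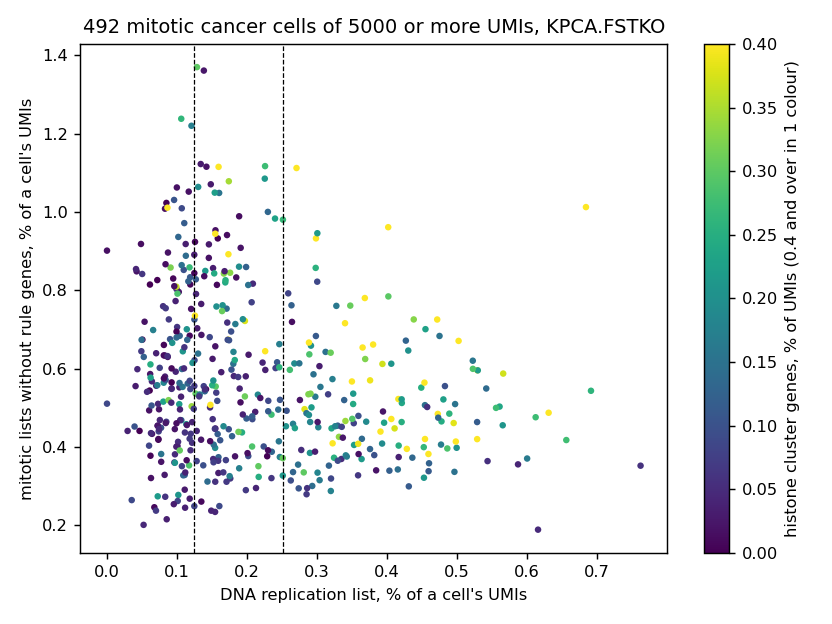
Each point is 1 of 492 mitotic cancer cells of at least 5000 UMIs, with the DNA replication list on the x axis and the late list of 60 genes on the y axis, in percent of UMIs, coloured by histone RNA. The dashed lines are the limits of the 3 bins of 164 cells. The cells fill a continuous field, cells with little histone RNA lie mostly to the left, and few cells are high on both axes.

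Between the bins rich and poor in replication RNA, 6975 genes with at least 300 UMIs were compared, leaving out the replication list itself. Of these, 448 (6.42%) were higher and 264 (3.78%) lower in the rich bin by the same size rule. The genes named here were chosen after their values were seen. Over the bins from poor to rich, Hells, a chromatin remodeler, was at 21.9, 58.3 and 165 CPM, and Dnmt1, which copies DNA methylation, at 21.2, 43.3 and 118 CPM. Pclaf, a partner of Pcna, was at 88.9, 174 and 464 CPM and E2f1 at 14.6, 21.7 and 51.5 CPM. These are factors of the replication fork and its regulation that were not in the list used to rank the cells. Of 13 compared checkpoint and repair genes 10 were higher and 0 lower, including Clspn, an activator of Chk1, at 13.6, 27.9 and 69.7 CPM.

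The mitotic lists did not move as 1 group between these bins. Cdc20, the anaphase activator, was at 156, 114 and 30.5 CPM from poor to rich, Ccnb2 at 182, 122 and 48.8 CPM, and Plk1 at 111, 106 and 40.0 CPM. Of 22 compared spindle motor and microtubule genes 13 were lower and 2 higher in the rich bin, and of 17 cyclins and kinases 8 were lower and 2 higher. The cytokinesis list had 3 of 10 lower and 0 higher, but these 3, Ckap2, Kif23 and Kif20a, are spindle motor list genes already counted. The anaphase-promoting complex had 3 of 18 lower and 1 higher. Other mitotic lists had more genes higher than lower in the rich bin, as had all genes compared, with 6.42% higher and 3.78% lower. These lists were the kinetochore list, with 10 of 26 higher and 1 lower (median log2 ratio 0.45), and condensin and cohesin, with 6 of 17 higher and 0 lower. The spindle checkpoint, with 2 of 8 higher and 1 lower, and the passenger complex, with 1 of 4 higher and 0 lower, rest on too few genes to read. The lower kinetochore gene was Cenpa, at 507, 419 and 162 CPM. The rule genes themselves were unequal. Cenpf was at 590, 529 and 179 CPM and Ube2c at 1040, 1015 and 357 CPM, whereas Mki67 was at 266, 293 and 271 CPM and Top2a at 517, 766 and 714 CPM. Cdk1 was level at 185, 202 and 179 CPM.

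Histone genes went both ways. Of 16 compared, 11 were higher and 4 lower in the replication-rich bin. Hist1h1b was at 67.01, 254 and 596 CPM and Hist1h2ap at 120, 263 and 556 CPM, but Hist1h2bc was at 223, 100.2 and 26.5 CPM and Hist1h1c at 109, 77.6 and 49.8 CPM. The level of Hist1h2bc in members as a whole thus joins cells that hold much of it and cells that hold little.

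The same rule was applied to the KPCA.FSTKO_hFSTL3 library. It found 187 of 1979 cancer cells mitotic, 9.45% (8.20 to 10.8%), against 21.8% in KPCA.FSTKO, with 56 of 1318 (4.25%) at 5000 UMIs and over and 101 of 1318 (7.66%) after thinning. As a background, barcodes with Ptprc under the keratin threshold passed in 10.9% of cases (22 barcodes, 6.99 to 16.1%), at a median of 15898 UMIs, and in 21 of 174 after thinning, 12.1% (7.63 to 17.9%). The cancer cell share of that library thus did not lie above its background and is not read as a level of division. Of its 3516 keratin-bearing barcodes, 1537 held a Ptprc or Pecam1 UMI and were left out, and 26 of these (1.69%, 1.11 to 2.47%) were mitotic. The members there were shallow, with a median of 2888 UMIs, and 62 of them rested on 1 or 2 UMIs. The other cancer cells of that library had a median mitochondrial share of 11.3%, against 4.60% in its members and 3.44% in KPCA.FSTKO. They also held 7087 CPM of acinar, 2771 CPM of erythroid and 2531 CPM of macrophage markers, against 2227, 648 and 626 CPM in its members. The difference in share between the libraries depended on which barcodes counted. With mitochondrial RNA under 10% the shares were 17.4 and 21.8%, and with the 8 genes at 0.05% they were 26.7 and 29.1%. With keratins at 0.5% of UMIs, 18 of 66 cells (27.3%, 17.0 to 39.6%) passed in KPCA.FSTKO_hFSTL3 and 97 of 472 (20.6%, 17.0 to 24.5%) in KPCA.FSTKO. Those intervals overlap, so the order at that setting is not settled. Genotype and library cannot be told apart, and at 0.2% of UMIs the shares were 3.39 and 12.2%.

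Within KPCA.FSTKO_hFSTL3 the medians of the mitotic lists also lay above 0, in another order. The median log2 ratio over all 10986 genes compared there was 0.19, so values are read against it. The 8 rule genes had a median of 3.38, with Top2a at 604 CPM in members and 56.7 CPM in other cancer cells, Ube2c at 572 and 91.8 CPM, and Nusap1 at 143 and 13.5 CPM. The passenger complex and cytokinesis lists each had a median of 2.51, the spindle motor list 2.44, the spindle checkpoint list 2.17, the kinetochore list 1.76, DNA replication 1.15 and histones 3.16. Aurka was at 59.98 and 12.02 CPM, Rrm2 at 87.6 and 24.5 CPM and Hist1h1b at 421 and 12.8 CPM. Btg2 and Dusp1 were lower in members here too, at 44.3 and 122 CPM and at 92.3 and 234 CPM.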

How the data were processed

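The authors made 10x Genomics 3-prime libraries and deposited raw counts of UMIs for 32285 genes per barcode, aligned to mm10 with Cell Ranger (3.1.0 in the labels and methods, cellranger 7.2.0 in the matrix header). The 7582 and 4244 deposited barcodes match the cell numbers in the methods, and the filter stated there left 6777 and 4041. Members, gene lists and named genes were chosen with earlier results of these data known. UMIs were summed over members and over other cancer cells and divided by all UMIs of the group as CPM. With 1 library per genotype, no test was made, and intervals (Clopper-Pearson, exact Poisson, conditional binomial, 95%) cover counting error only. Genes with at least 100 UMIs were compared. The text names the rule genes, up to 8 genes of each of 32 lists (largest and smallest ratio, highest CPM), genes of the driver, activin, EMT, lineage and G1 lists, and the 10 most extreme genes at each end among unlisted genes of at least 200 UMIs. Mcm5, Gins3 and genes described over replication bins were added after their values were seen. Doublets were scored with Scrublet in scanpy 1.11.5 and kept. Promoters came from RefSeq (GRCm38.p6). TMM factors came from edgeR 4.0.16 and served for scaling alone. The rest ran in Python 3.11.15 (scipy 1.17.1) and R 4.3.3. The scripts for ratios and counts were tested on simulated data with known changes. Values were recomputed under 14 other settings and 1 more chosen after seeing the data. Human FSTL3 was not analysed here, and 1 gene is not reported here.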

Additional observations from a re-analysis of the deposited data

Results flagged for a closer look

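Each of 5 genes was higher in mitotic than in other cancer cells of KPCA.FSTKO and lower in KPCA.FSTKO_hFSTL3, with intervals on opposite sides of 0. The difference was not tested, since each genotype has 1 library. For the macrophage genes Mrc1, Csf1r and C1qb the log2 ratios were 1.17 against -1.97, 0.90 against -2.20 and 0.70 against -2.15, differences of 3.15, 3.099 and 2.85. The macrophage markers summed to 122 CPM in members and 97.6 CPM in other cancer cells of KPCA.FSTKO, and to 626 and 2531 CPM in KPCA.FSTKO_hFSTL3. The interferon-induced GTPase gene Gbp2 had log2 ratios of 1.02 and -0.93, a difference of 1.95. The peptide transporter gene Tap1 had log2 ratios of 0.60 and -4.08, a difference of 4.68, where the value in KPCA.FSTKO_hFSTL3 rests on 1 UMI in members against 217 in other cancer cells (-9.39 to -1.59). The part of macrophage RNA in these differences was not tested.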

How the results depend on the processing

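Shares of mitotic cells depended most on thresholds and depth. In KPCA.FSTKO the share was 29.1% with the 8 genes at 0.05%, 12.2% at 0.2%, 17.6% with only cells of 5000 UMIs and 19.4% with at least 3 UMIs of the 8 genes, an alternative chosen after seeing the data. In KPCA.FSTKO_hFSTL3 these were 26.7, 3.39, 4.25 and 6.52%, and the share was 27.3% with keratins at 0.5%, 6.06% with Ptprc or Pecam1 barcodes kept and 17.4% with mitochondrial RNA under 10%. The ratio of median UMIs, 0.827 in the report, turned to 1.17 at 0.2%, 1.30 with 5000 UMIs, 1.06 with members chosen by Top2a, Mki67, Cenpf and Cenpe and 1.15 with at least 3 UMIs. The keratin ratio was 0.987 at 0.05% and 0.918 with keratins at 0.5%. The DNA replication median was 1.59 at 0.05%, 0.75 at 0.2% and 1.51 with the 4 genes. Higher genes numbered 1462 with at least 20 UMIs and 470 with a ratio of 2, and lower genes 452 after thinning, 1588 with at least 20 UMIs, 313 with at least 500 and 232 with a ratio of 2. TMM scaling gave 841 higher and 856 lower genes. Of the values of 140 named genes under 12 alternatives, 1178 stayed within their counting interval, 489 moved beyond it in the same direction or from a value not called, and 8 turned: Ung to 0.13, Ccne2 to -0.36, 2210010C04Rik and Rnase1 to 0.43, Ccl5 to 1.60, C1qb to -0.16, Cxcl2 to -0.27 and Mgat4c to 0.059. Apart from where fewer cells or genes entered by construction, the cause was not tested. No paired analysis was possible because each genotype has 1 library, and no replicate could be left out.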
